A study of Homo sapiens with 2 samples.

Results

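The genes examined here encode the folding and quality control machinery of the endoplasmic reticulum (ER), and were read in RNA-seq of hNCI-H716 cells. They were chosen by symbol from a list of 44 genes for ER chaperones, disulfide isomerases, ER-associated degradation (ERAD) and the sensors of the unfolded protein response. Of these, 42 had a value among the 19989 genes of the table. SELENOS and SELENOK had no row under those symbols, and ERN2 and DERL3 averaged under 1 CPM (counts per 1000000 counts), so that 40 members were compared, among 13052 genes that averaged 1 CPM or more.

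The hNCI-H716 line is a human cecal colorectal adenocarcinoma line that serves as a model of the enteroendocrine L-cell, which secretes glucagon-like peptide-1. Cells of this 1 line were cultured on Matrigel for 48 h with glucose at 5.5 mM (low) or at 25 mM (high), in DMEM with 10% fetal bovine serum. Polyadenylated RNA was read from 1 library for each concentration. The estimated counts recovered from the table added to 21757832 for low and 19456555 for high glucose. With 1 library per glucose concentration no replicate check and no test were possible, so every difference is between these libraries and cannot be told apart from any other difference between the cultures.

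Proteins that enter the secretory pathway fold in the ER with the help of chaperones, lectins and enzymes that form disulfide bonds. Molecules that do not fold are returned to the cytosol and degraded, a process termed ERAD. Sensors in the ER membrane (IRE1, PERK and ATF6) respond to a load of unfolded protein by raising transcription of chaperone and ERAD genes and by slowing translation. Cells that make peptide hormones in bulk, as L-cells do, depend on this machinery.

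The line expressed part of the L-cell program. Of 10 L-cell markers, 7 had a value, with GCG, which encodes proglucagon, at 1954 in low and 1808 CPM in high glucose, while PYY, NEUROD1 and INSL5 had no value. The 7 summed to 4615 in low and 4407 CPM in high glucose, with ratios on both sides of 0. Exact 95% counting intervals of the log2 ratio of high over low glucose lay below 0 for 4 (GCG, CHGA, CHGB and SCG3) and above 0 for 2, PCSK1 at 555 and 600 CPM and SCGN at 16.9 and 20.4 CPM, where 15.9% of all genes had one below and 15.8% one above 0. Most of these markers have many counts, so that small ratios clear 0. Of 8 epithelial markers 7 had a value and 5 averaged 1 CPM or more. All 5 had a ratio above 0 in high over low glucose (6340 of all 13052 genes did), 4 had an interval above 0 (15.8%), and 2 were higher by a log2 ratio of 0.32 or more (4.41%). The sum over the 7 was 498 in low and 563 CPM in high glucose. Among the 5 that averaged 1 CPM or more, VIL1 had the highest ratio (11.7 and 17.8 CPM). The part of this difference in the values of the members was not tested. The E-cadherin gene CDH1 and KRT20 were at or under 3 counts in each library, which is the limit that a count of 0 allows (0.138 CPM for the low and 0.154 CPM for the high glucose library). Of the leukocyte, fibroblast and endothelial markers, LYZ (441 and 413 CPM) and COL3A1 (815 and 742 CPM) had high CPM, whereas PTPRC had no value, COL1A1 was at 2 counts or fewer and the 3 endothelial markers were each under 1 CPM.

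Of 38 members with a promoter sequence, 11 carry the ER stress response element or element II, described below, close to their start sites. The 200 bases before the start of 6 members are shown because these genes lead the comparisons that follow, and 1 of them, ERN1, holds no match. The sequences are RefSeq promoters on GRCh38.p14, written 5′ to 3′ on the strand of the gene, with matches to the searched motifs in capitals. HSPA5, HSP90B1 and HYOU1 are chaperone genes, XBP1 encodes the transcription factor of the IRE1 branch, and HERPUD1 and ERN1 had the largest ratios in size among the 40 members that averaged 1 CPM or more.
HSPA5, chr9:125241344-125241543, minus strand: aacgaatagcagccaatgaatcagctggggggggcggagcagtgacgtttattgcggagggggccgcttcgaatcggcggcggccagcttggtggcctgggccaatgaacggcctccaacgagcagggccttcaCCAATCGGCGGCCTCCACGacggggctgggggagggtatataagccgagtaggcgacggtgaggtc
HSP90B1, chr12:103930210-103930409, plus strand: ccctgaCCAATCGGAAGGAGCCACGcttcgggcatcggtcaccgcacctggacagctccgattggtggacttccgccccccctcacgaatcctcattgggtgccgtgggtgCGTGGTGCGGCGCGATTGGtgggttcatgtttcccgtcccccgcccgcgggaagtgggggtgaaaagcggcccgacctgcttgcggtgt
HYOU1, chr11:119057206-119057405, minus strand: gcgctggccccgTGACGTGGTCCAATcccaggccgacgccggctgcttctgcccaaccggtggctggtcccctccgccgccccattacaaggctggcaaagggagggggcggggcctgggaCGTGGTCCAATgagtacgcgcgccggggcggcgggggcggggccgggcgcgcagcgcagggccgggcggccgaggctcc
HERPUD1, chr16:56931942-56932141, plus strand: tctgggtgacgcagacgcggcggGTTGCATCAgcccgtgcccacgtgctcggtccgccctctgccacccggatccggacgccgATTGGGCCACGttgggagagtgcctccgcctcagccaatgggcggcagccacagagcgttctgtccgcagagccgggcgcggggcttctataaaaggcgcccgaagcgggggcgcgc
XBP1, chr22:28800570-28800769, minus strand: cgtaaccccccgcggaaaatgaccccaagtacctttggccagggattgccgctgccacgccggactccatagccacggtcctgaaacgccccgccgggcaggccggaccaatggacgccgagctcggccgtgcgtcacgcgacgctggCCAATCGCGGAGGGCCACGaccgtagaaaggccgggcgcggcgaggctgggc
ERN1, chr17:64130145-64130344, minus strand: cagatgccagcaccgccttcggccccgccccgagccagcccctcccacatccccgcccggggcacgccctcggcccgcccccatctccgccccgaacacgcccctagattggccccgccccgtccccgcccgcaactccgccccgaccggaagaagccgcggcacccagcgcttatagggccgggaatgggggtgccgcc

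The motifs were searched on both strands of windows from 250 bases before to 50 bases after each RefSeq start, of which 50 windows belonged to 38 members. DERL1, DERL3, ERN2 and PDIA3 had no entry. The ER stress response element (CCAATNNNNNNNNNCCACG), which was first defined in promoters of ER chaperone genes, occurred in 27 of all 35116 windows (0.0769%). Among the members it lay in 10 of 50 windows, in the genes CALR, CANX, CRELD2, ERO1B, HSP90B1, HSPA5, PDIA6 and XBP1. The 3 matching windows of CANX overlap and hold one and the same site. HSP90B1 had a pair of matches, which began 194 and 89 bases before its start.

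The shorter ER stress response element II (ATTGGNCCACG) occurred in 19 of all windows (0.0541%), and in those of HERPUD1, HYOU1 and SDF2L1. The unfolded protein response element (TGACGTGG) was in 256 windows (0.729%), among them those of DNAJC10, HYOU1, TXNDC11 and TXNDC5. In HYOU1 it overlaps one of 2 matches to element II, so that both share a run of capitals. The C/EBP-ATF element (TGATGNAAN), a site for ATF4 and its partners, was in 1268 windows (3.61%) and, among the members, in HERPUD1 alone. ERN1 held none of these letters in its window, which says nothing about the factors that act on it. A match is a description of the sequence and not evidence of binding.

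**Figure D1:**
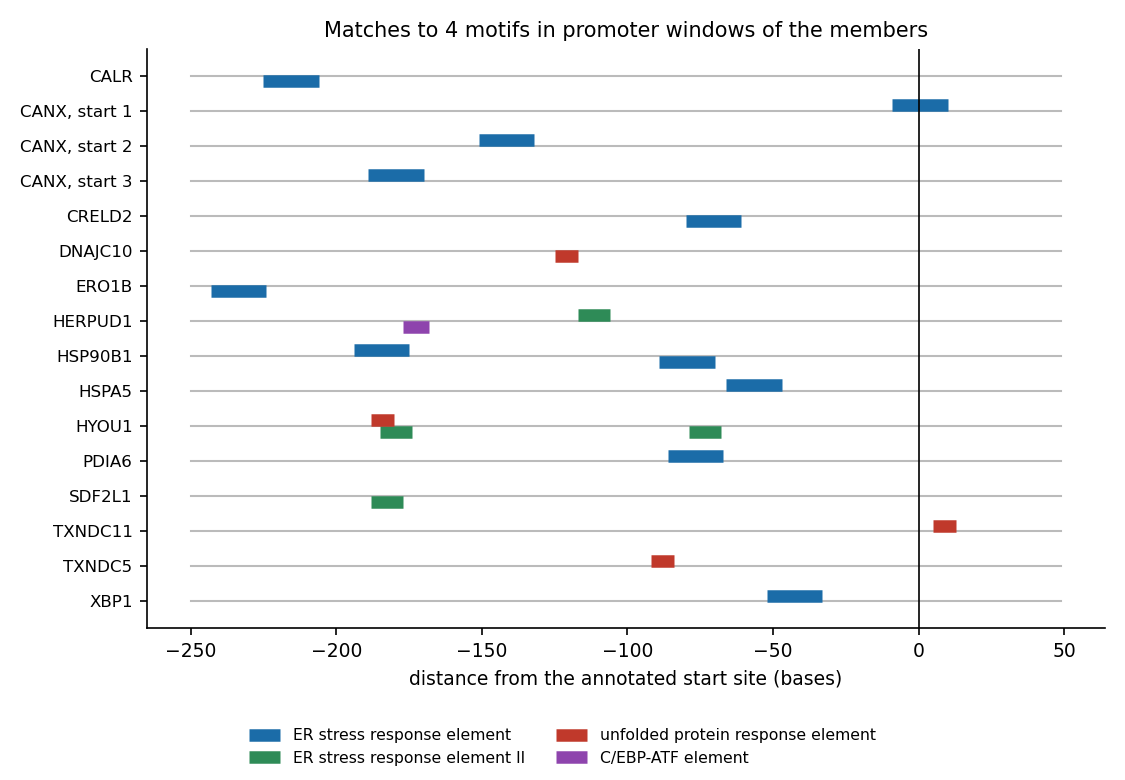
Positions of the matches to 4 motifs (colours) in the promoter windows of the 14 members that hold any, in bases from the annotated start site; bars above a line are on the strand of the gene and bars below it on the other strand. All matches lie before the start except those of TXNDC11, 5 bases after it, and of CANX start 1, which spans it.

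The members took a sizeable share of each library. Together they held 14642 CPM or 1.46% of the low glucose library and 14542 CPM or 1.45% of the high glucose library. A set of 9 genes (P4HB, HSP90B1, CALR, PDIA6, PDIA3, PDIA4, HSPA5, CANX and PPIB) made up 72.2% of this sum for low and 72.7% for high glucose. These CPM give shares of the reads, which grow with transcript length, and do not order the genes by level. The median of the 40 members' mean CPM was 119 against 27.8 over all 13052 genes, which bears on the counts behind each ratio.

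To order the levels of different genes, CPM were divided by transcript length in kb, with the median length of each gene's coding transcripts in GENCODE v29. On this scale the 5 highest members were P4HB, a disulfide isomerase, with a mean of 2375 CPM per kb, the lectin chaperone CANX (1816), its soluble relative CALR (1429), the Hsp90 of the ER HSP90B1 (1164) and the prolyl isomerase PPIB (883). HSPA5, the Hsp70 of the ER, was at 278 CPM per kb, in a transcript of 3908 bases, and exceeded 96.5% of coding genes. P4HB and CANX have several short annotated transcripts, and the longest transcript gave 521 CPM per kb for P4HB and 252 CPM per kb for CANX, which moved CANX from rank 2 to rank 9. With that length CALR was above CANX, PPIB ranked first, and PDIA6 entered the highest 5. The order of the most abundant chaperones therefore rests on the choice of transcript.

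With the median length, the 5 lowest members were ATF6, ERO1B, CRELD1, DERL3 and ERN2. With the longest transcript 4 of these stayed among the lowest 5, ATF6 moved to rank 34 and DERL2 entered at rank 38, with 5.68 CPM per kb in place of 38.7. ATF6, a sensor that becomes a transcription factor when cut, was at 9.75 CPM per kb. ERO1B, an oxidase known mainly from endocrine pancreas, was at 8.75 CPM per kb (2.26 with the longest transcript), and CRELD1 at 8.01 CPM per kb (5.28). DERL3 and ERN2 were far lower, at 0.429 and 0.132 CPM per kb. ERN2 encodes the IRE1β found in mucus-secreting gut epithelium and rested on 11 estimated counts in the low and 7 in the high glucose library, against 1292 and 766 counts for its widely expressed relative ERN1. Per kb, ERN1 exceeded ERN2 by 77.5 times in low and 71.5 times in high glucose with the median length, and by 51.7 and 47.7 times with the longest transcript. DERL3 rested on 10.6 and 7 counts.

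**Figure D2:**
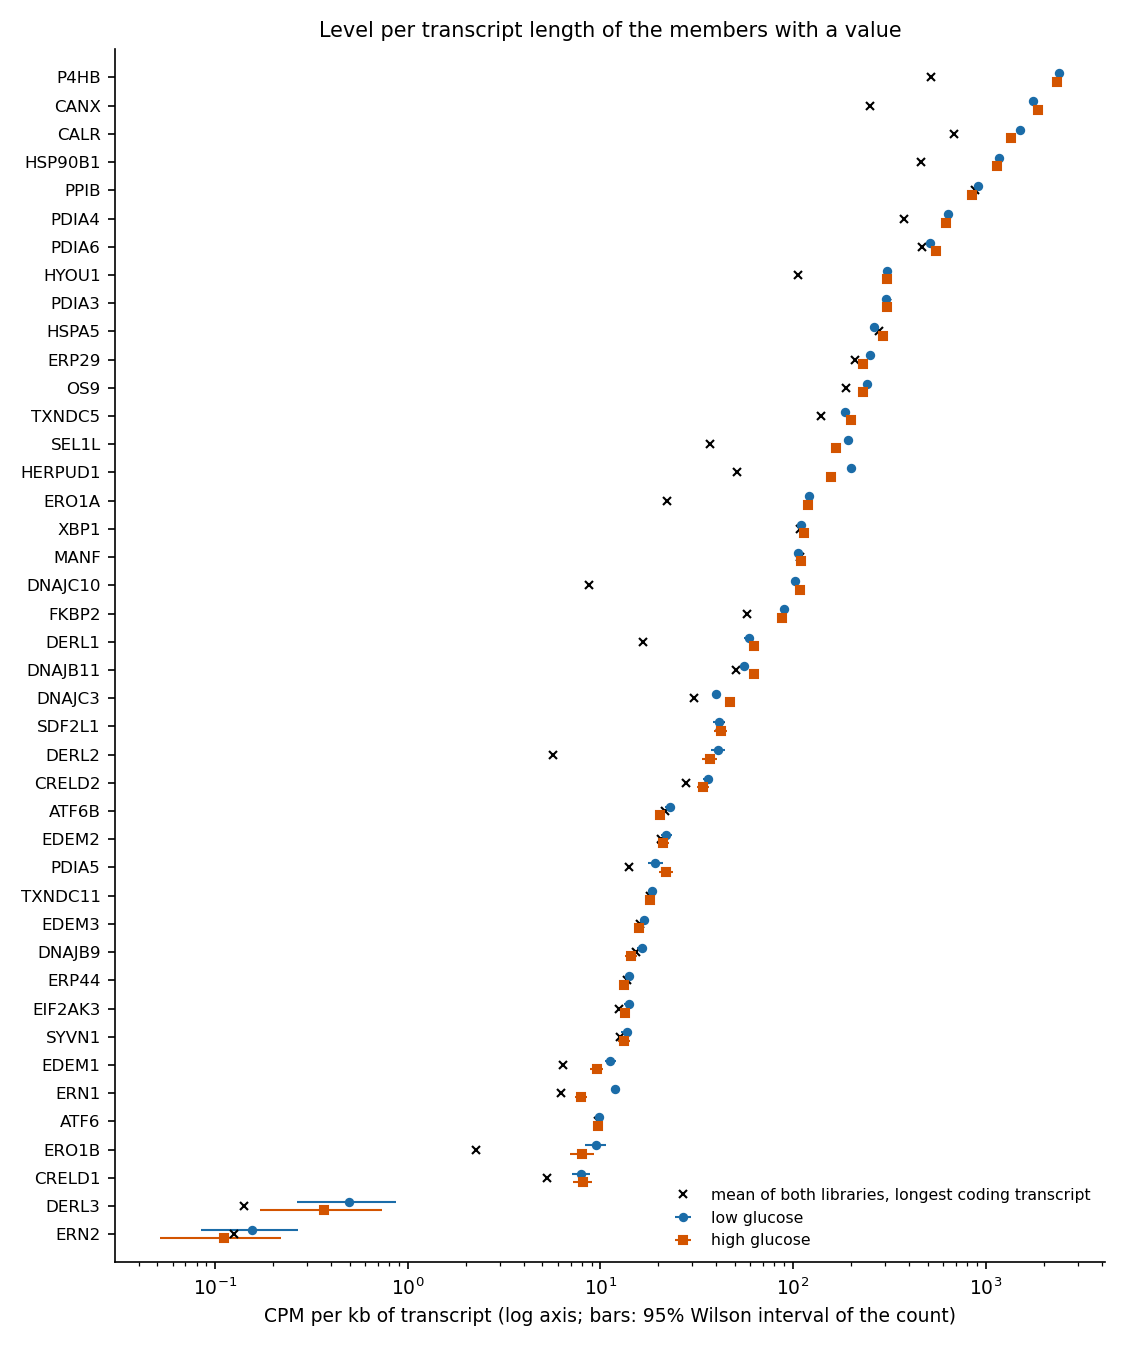
Level of each of the 42 members with a value, in CPM per kb of transcript on a log axis, in low glucose (circles) and high glucose (squares) with 95% Wilson intervals of the counts; crosses give the mean with the longest coding transcript. P4HB is highest at 2375 CPM per kb with the median length and 521 with the longest, and DERL3 and ERN2 stand apart at the bottom.

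Between the libraries the members differed little. In bulk RNA, fewer cells of a type and less RNA per cell cannot be told apart. The median log2 ratio of high over low glucose was -0.03 over the 40 members and -0.0064 over all 13052 genes, and the median size of the log2 ratio was 0.0861 for the members and 0.118 for all genes. A log2 ratio of 0.32 was used as a threshold of size, with no test behind it. No member was higher in high glucose by that much (0 of 40, where 4.41% of all genes were), and 2 of 40 members (5%) were lower by it, where 8.18% of all genes were. The quartiles of the members' ratios were -0.11 and 0.05. The median of the mean CPM was 27.8 for all genes against 119 for the members, and ratios that rest on fewer counts spread more widely. These shares and sizes therefore do not compare the members with genes of like level.

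Each ratio carries an exact 95% interval from its counts, which covers counting error only. This interval lay above 0 for 8 of 40 members (20%, where it did for 15.8% of all genes) and below 0 for 13 of 40 (32.5%, against 15.9%). The members have more counts than most genes, and the median half-width of their intervals was 0.0816 on the log2 scale against 0.170 for all genes. A smaller ratio can therefore clear 0 among them. The part of this in the shares above and below 0 was not tested. For the other 19 members the interval included 0.

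**Figure D3:**
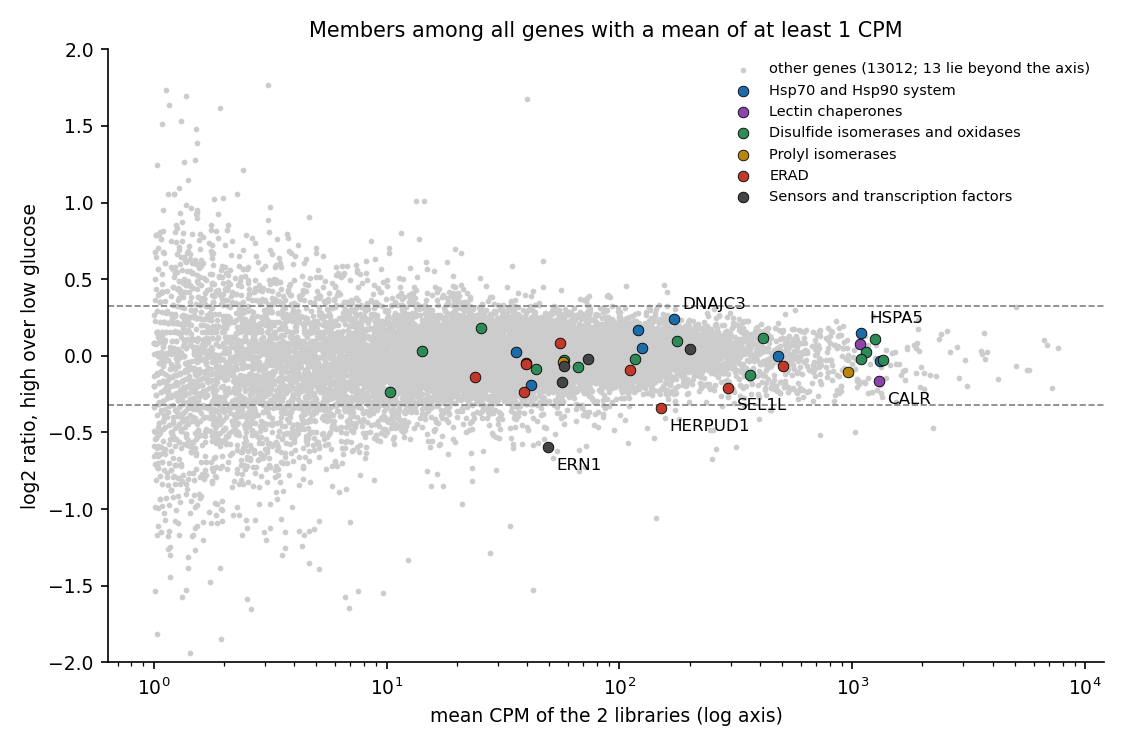
Mean CPM on a log axis against the log2 ratio of high over low glucose for 13052 genes, with the 40 members coloured by role; dashed lines mark log2 ratios of 0.32 either way, and 13 other genes lie beyond the axis. ERN1 and HERPUD1 are the members below the lower line, and none lies above the upper line.

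Among the sensors and transcription factors, ERN1 had the largest ratio of any member. ERN1 (ENSG00000178607.15, chromosome 17 of GRCh38, 64039142 to 64130819, minus strand) encodes IRE1α, the kinase and RNase that splices XBP1 mRNA. Its level was 59.5 CPM (Wilson 95% interval 56.3 to 62.8) with low and 39.3 CPM (36.6 to 42.2) with high glucose. The high glucose library was 1.51-fold lower and the intervals did not overlap, a log2 ratio of -0.60 (-0.73 to -0.47), and 2.42% of all genes had a ratio as low or lower.

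The other genes of this group stood closer together. ATF6B, a relative of ATF6, was at 60.1 in low and 53.5 CPM in high glucose, a log2 ratio of -0.17 (-0.29 to -0.05). EIF2AK3, which encodes PERK, was at 59.1 and 56.4 CPM (-0.07, interval -0.18 to 0.05). ATF6 was at 73.7 and 72.6 CPM (-0.02, interval -0.13 to 0.08). The intervals of EIF2AK3 and ATF6 included 0.

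XBP1 (chromosome 22, 28794555 to 28800597, minus strand) was at 197 in low and 204 CPM in high glucose. Its log2 ratio of 0.04 (-0.02 to 0.11) was the only one above 0 in the group, with an interval that included 0. Gene counts do not separate the spliced from the unspliced XBP1 transcript, so the activity of IRE1 was not read here. ERN2, at 0.518 and 0.371 CPM, gave a log2 ratio of -0.48 with an interval from -2.10 to 1.00, and no difference was detectable at this depth.

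Of 9 ERAD genes compared, 5 had an interval below 0 (15.9% of all genes did), none had one above 0, and 1, HERPUD1, was lower by 0.32 or more (8.18% of all genes were). The median log2 ratio was -0.09, with 8 of 9 ratios below 0, where 6712 of all 13052 genes had one below 0. HERPUD1 (ENSG00000051108.14, chromosome 16, 56932048 to 56944863, plus strand) encodes a membrane protein of the ERAD complex, and its promoter, printed above, holds the C/EBP-ATF element and element II. It was at 168 CPM with low glucose (163 to 174) and 133 CPM in high glucose (128 to 138), a log2 ratio of -0.34 (-0.42 to -0.27). A ratio as low or lower was found for 7.41% of all genes.

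SEL1L, the scaffold of the same complex, was at 315 CPM with low glucose (307 to 322) and 273 CPM in high glucose (265 to 280), a log2 ratio of -0.21 (-0.26 to -0.15). SYVN1, the ubiquitin ligase that SEL1L holds, was at 40.3 and 39.0 CPM (-0.05, interval -0.19 to 0.09). The intervals of these log2 ratios overlap, which does not decide whether the ratios differ. SYVN1 rested on 876 and 759 counts against 6837 and 5314 for SEL1L. A difference between the ratios of the scaffold and the ligase was not tested. Per kb, SEL1L exceeded SYVN1 by 14.1 times in low glucose with the median transcript length, and by 3.10 times with the longest.

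EDEM1, EDEM2 and EDEM3 encode mannosidase-like proteins that mark glycoproteins for ERAD. EDEM1 was at 42.3 in low and 35.9 CPM in high glucose (log2 ratio -0.24, interval -0.38 to -0.09). EDEM3 was at 114 and 107 CPM (-0.09, interval -0.18 to -0.01). EDEM2 was nearly level at 40.3 and 38.9 CPM (-0.05, interval -0.19 to 0.09).

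OS9, a lectin that hands glycoproteins to the complex, had the highest level per kb of the ERAD genes with either transcript length, and was at 518 and 494 CPM (-0.07, interval -0.11 to -0.03). The derlins DERL1 and DERL2 form channels in the ER membrane. DERL1 was at 54.2 and 57.5 CPM, the only one of the 9 ERAD members compared with a ratio above 0 (0.09, interval -0.03 to 0.20). DERL2 was at 25.1 and 22.7 CPM (-0.14, interval -0.32 to 0.04), and both derlins had intervals that included 0. DERL3, at 0.501 and 0.371 CPM, had an interval from -2.06 to 1.07. A row under VIMP, which RefSeq lists as another symbol of SELENOS, was not counted as a member. It was at 43.2 and 44.4 CPM (0.04, interval -0.10 to 0.17), so its ratio was above 0 as well, with an interval that included 0.

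**Figure D4:**
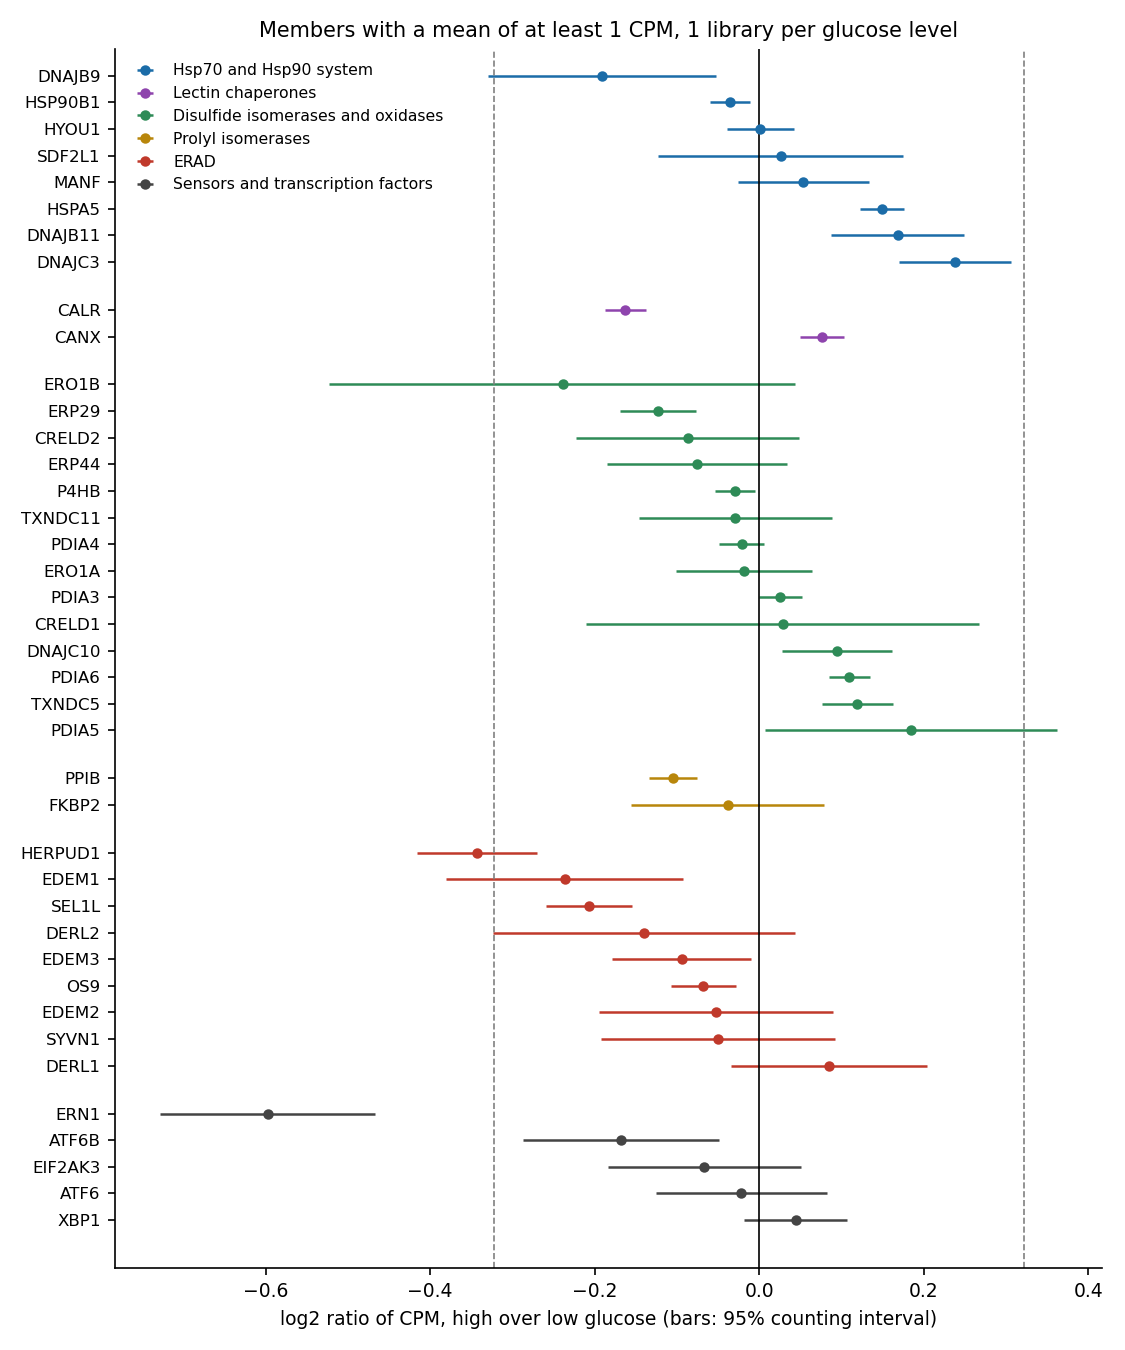
Log2 ratio of CPM in high over low glucose for the 40 members that averaged 1 CPM or more, grouped by role, with exact 95% counting intervals; dashed lines mark 0.32 either way. ERN1 at -0.60 and HERPUD1 at -0.34 lie past the left line, and DNAJC3 at 0.24 is the highest.

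Of 8 genes of the Hsp70 and Hsp90 system, 3 had an interval above 0 (15.8% of all genes did), 2 had one below 0 (15.9%), and none passed 0.32 either way. Ratios above 0 were found for 6 of 8, where 6340 of all 13052 genes had one. The difference from the ERAD genes was not tested. The summed level was 3314 CPM with low and 3437 CPM in high glucose, and the median log2 ratio was 0.04. HSPA5 (ENSG00000044574.7, chromosome 9), which encodes BiP, the main chaperone of the ER, was at 1031 CPM with low glucose (1018 to 1045) and 1143 CPM in high glucose (1129 to 1159). The high glucose library was 1.11-fold higher, a log2 ratio of 0.15 (0.12 to 0.18). These intervals do not overlap, although 17.4% of all genes had a ratio as high or higher.

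BiP works with J-domain proteins, of which 4 are members, though they do not form one of the role groups. The interval lay above 0 for 3 of the 4, where it did for 15.8% of all genes. These were DNAJC3, DNAJB11 and DNAJC10, the last given with the disulfide isomerases. For 1, DNAJB9, it lay below 0, where it did for 15.9% of all genes. DNAJC3, a cochaperone that also inhibits PERK, was at 157 and 185 CPM (chromosome 13). Its log2 ratio of 0.24 (0.17 to 0.31) was the highest of all members, and 7.89% of all genes had one as high or higher. DNAJB11 was at 114 and 128 CPM (0.17, interval 0.09 to 0.25). DNAJB9, which binds IRE1 and ERAD substrates, was lower in high glucose, at 44.5 and 39.0 CPM (-0.19, interval -0.33 to -0.05).

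HSP90B1, which encodes GRP94, was nearly level at 1329 and 1296 CPM, and its narrow interval lay just below 0 (-0.04, from -0.06 to -0.01). HYOU1, a large Hsp70 that exchanges the nucleotide of BiP, was at 482 CPM in both libraries (log2 ratio 0.0015, interval -0.04 to 0.04). These chaperones, whose promoters are printed above, thus had ratios above 0 (HSPA5), below 0 (HSP90B1) and within counting error of 0 (HYOU1). SDF2L1, a partner of the J-domain proteins, was at 35.7 and 36.3 CPM (0.03, interval -0.12 to 0.18). MANF, a secreted partner of BiP, was at 122 and 127 CPM (0.05, interval -0.03 to 0.13).

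The lectin chaperones CALR and CANX, which bind the same glycans on folding glycoproteins, differed in opposite directions. CALR (chromosome 19) was at 1379 CPM with low glucose (1363 to 1394) and 1232 CPM in high glucose (1216 to 1247), a log2 ratio of -0.16 (-0.19 to -0.14). CANX (chromosome 5), the membrane-bound form, was at 1046 CPM with low glucose (1033 to 1060) and 1103 CPM in high glucose (1089 to 1118), a log2 ratio of 0.08 (0.05 to 0.10). The intervals of the libraries did not overlap for either gene, and both ratios were smaller in size than 0.32. A ratio as low as that of CALR or lower was found for 21.1% of all genes, and one as high as that of CANX or higher for 30.3%. Counting intervals of the ratio lay below 0 for 15.9% and above 0 for 15.8% of all genes.

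Of 14 disulfide isomerases, oxidases and related genes, 6 had a ratio above 0 and 8 below 0, where 6340 and 6712 of all 13052 genes did, and the median log2 ratio was -0.02. Their sum was 6088 CPM with low and 6167 CPM in high glucose. The genes whose interval lay above 0 were PDIA5, TXNDC5, PDIA6 and DNAJC10, and those below 0 were ERP29 and P4HB, or 4 and 2 of 14, where 15.8% and 15.9% of all genes had such intervals.

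PDIA6 was at 1207 in low and 1303 CPM in high glucose (log2 ratio 0.11, interval 0.08 to 0.13). TXNDC5 was at 395 and 429 CPM (0.12, interval 0.08 to 0.16). PDIA5, the lowest per kb of the 4 PDIA members, was at 23.8 and 27.1 CPM (0.18, interval 0.01 to 0.36). DNAJC10, a J-domain protein that reduces disulfides of ERAD substrates, was at 170 and 182 CPM (0.09, interval 0.03 to 0.16). All of these were modest ratios on well-counted genes, apart from PDIA5, which rested on 517 and 527 counts.

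The abundant isomerases P4HB, PDIA3 and PDIA4 were close to level. P4HB was at 1370 and 1343 CPM (-0.03, interval -0.05 to -0.01). PDIA4 was at 1096 and 1080 CPM (-0.02, interval -0.05 to 0.01). PDIA3, the partner of calnexin and calreticulin, was at 1130 and 1151 CPM (0.03), with an interval whose lower limit, -0.0005, was just under 0. PDIA3 shares sequence with the processed pseudogene PDIA3P1, which the table lists at 16.5 and 18.3 CPM, so its value is uncertain by the reads that the estimate divides between them. ERP29, which lacks the active site of the isomerases, was at 381 and 350 CPM (-0.12, interval -0.17 to -0.08).

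ERO1A and ERO1B encode the oxidases that renew the isomerases. ERO1A was at 118 and 116 CPM (-0.02, interval -0.10 to 0.06). ERO1B was at 11.2 and 9.45 CPM (-0.24, interval -0.52 to 0.04). Per kb ERO1A exceeded ERO1B by 12.7 times in low and 14.8 times in high glucose with the median transcript length. With the longest transcript it did so by 9.11 and 10.6 times.

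ERP44, which retrieves ERO1 proteins and unassembled clients from the Golgi, was at 68.1 and 64.7 CPM (-0.08, interval -0.18 to 0.03). TXNDC11 was at 58.3 and 57.1 CPM (-0.03, interval -0.15 to 0.09). Neither interval excluded 0. CRELD2 was at 45.0 and 42.4 CPM (-0.09, interval -0.22 to 0.05). CRELD1, a related membrane protein, was at 14.1 and 14.4 CPM (0.03, interval -0.21 to 0.27). The intervals of the CRELD genes included 0 as well.

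The prolyl isomerases turn the peptide bonds before proline. PPIB, cyclophilin B, was at 989 in low and 920 CPM in high glucose (-0.10, interval -0.13 to -0.08). FKBP2 was at 58.3 and 56.8 CPM (-0.04, interval -0.16 to 0.08). Both ratios were below 0, where 6712 of all 13052 genes had one below 0. The interval of PPIB lay below 0, where 15.9% of all genes had such an interval.

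The promoter matches and the ratios were set side by side as a description. The 11 members with an ER stress response element or element II had a median log2 ratio of 0.0015, with 6 above 0 and 5 below 0, and ran from HERPUD1 at -0.34 to HSPA5 at 0.15. The 27 members with a window but without either element had a median of -0.05, with 7 above 0 and 20 below 0, and ran from ERN1 at -0.60 to DNAJC3 at 0.24. Over all 13052 genes, 6340 ratios were above 0 and 6712 below 0. The ranges of these sets overlap over most of their length.

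Other genes of the pathway were taken from lists made by function. In the list for translocation and N-glycosylation, 28 genes were compared, none passed 0.32 either way (4.41% of all genes were higher and 8.18% lower), and the median log2 ratio was 0.00093. Of these 28, 10 had an interval above 0 and 8 one below 0, where 15.8% and 15.9% of all genes did. The lowest ratio there among genes averaging 10 CPM or more was that of SSR4, a subunit of the translocon-associated complex, at 435 and 361 CPM (-0.27), and the highest that of TRAM1, at 139 and 168 CPM (0.27). Among 30 other ER folding genes, 5 had an interval above 0 and 7 one below 0, against the same 15.8% and 15.9% of all genes. Their median was 0.0093, and 1 was higher and 1 lower by 0.32 or more, against the same 4.41% and 8.18%. The higher one, FKBP14, was at 19.0 and 25.3 CPM (0.41). The lower one, PDIA2, was at 4.43 and 3.5 CPM (-0.34, interval -0.81 to 0.12).

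Of 28 other ERAD genes none passed 0.32 (all genes 4.41% higher and 8.18% lower), 10 had an interval above 0 and 5 one below 0 (all genes 15.8% and 15.9%), and the median was 0.05, with UBE2J1, a ubiquitin-conjugating enzyme of the ER, highest at 216 and 262 CPM (0.28). This list and the ERAD members thus had medians on either side of 0, a difference that was not tested. Among 12 other regulators of the unfolded protein response, 1 gene was lower by 0.32 or more, where 8.18% of all genes were, CREB3L4 at 15.6 and 11.5 CPM (-0.44), and the median was 0.0063. Of these 12, 4 had an interval above 0 and 5 one below 0 (all genes 15.8% and 15.9%).

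The ATF4-CHOP branch, which lies downstream of PERK and of other kinases that sense nutrients, had lower ratios. All of its 15 genes with a value had a ratio below 0, and 14 were lower by 0.32 or more (8.18% of all genes were), with a median of -0.75. The exception, PPP1R15B, was at 93.8 and 78.6 CPM (-0.25). DDIT3, which encodes CHOP, was at 63.2 in low and 21.9 CPM in high glucose (-1.53). ATF4 was at 382 and 253 CPM (-0.59). Whether the members and this branch differ beyond the spread between cultures was not tested, since each concentration had 1 library.

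**Figure D5:**
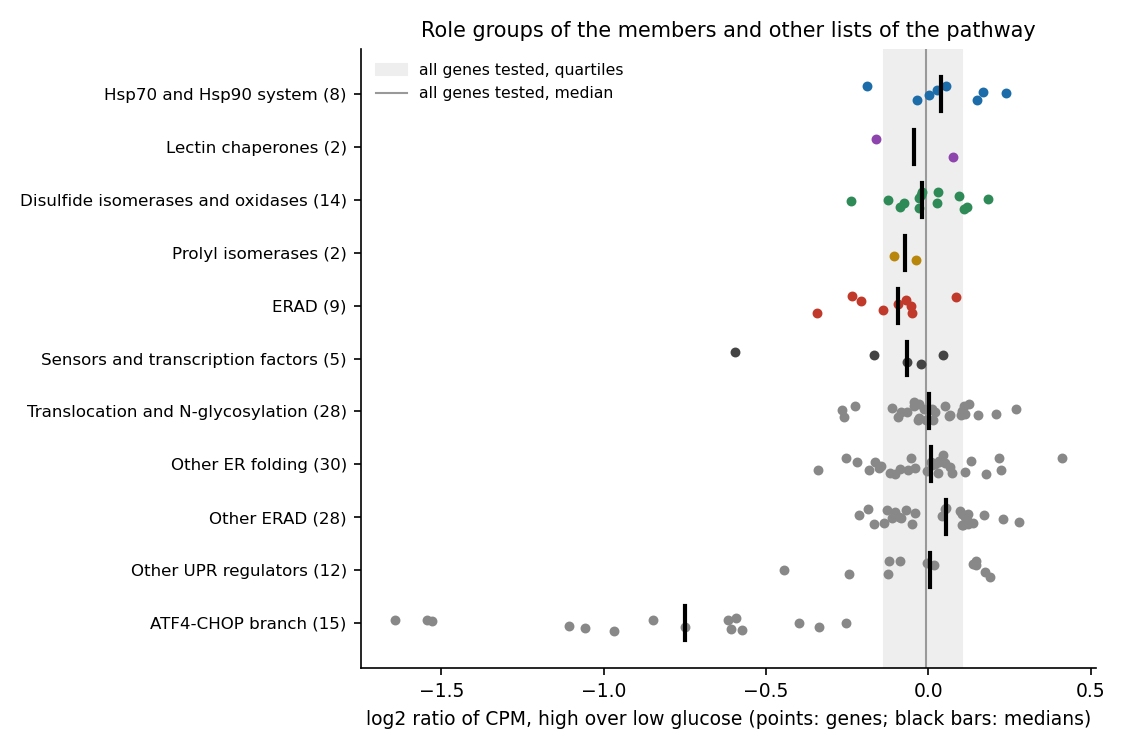
Log2 ratio of high over low glucose for each gene (points, with the number compared in parentheses) in the 6 role groups of the members (coloured) and in 5 other lists of the pathway (grey), with medians as black bars; the band spans the quartiles of all 13052 genes. The medians of the role groups lie between -0.09 and 0.04, and that of the ATF4-CHOP branch at -0.75.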

How the data were processed

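Polyadenylated RNA of hNCI-H716 cells was sequenced from 1 library in low and 1 in high glucose. The authors trimmed the reads with Trim Galore 0.5.0, aligned them to human genome assembly 38 with STAR 2.6.0, quantified genes with RSEM 1.3.1, removed genes with a total expected count under 1 and normalized with TMM. The deposited table gives CPM and log2 CPM per library. Its columns of the authors' mean, log2 difference and fold ratio hold their own comparison and were not used.

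The deposited CPM contain a small prior (0.25 counts), and without it add to 1000000 in each library. The CPM worth of 1 count was read from steps between low values, which gave estimated counts, of which 73.8% and 74.0% under 10 CPM were within 0.05 of a whole number. RSEM divides shared reads, so no count model was run. TMM factors computed from these counts (0.998 in low, 1.002 in high glucose) were applied to the deposited CPM. Intervals are Wilson (levels) and exact binomial (ratios). A log2 ratio of CPM was compared for genes averaging 1 CPM or more. Calculations used Python 3.11.15, numpy 2.4.6, pandas 2.3.3 and scipy 1.17.1, and were tested on simulated libraries.

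Coordinates and lengths came from GENCODE v29 and promoters from RefSeq, both on GRCh38. The study used GENCODE v28. The members, lists and alternatives were chosen with earlier results of these data known. Full values were set for members past a log2 ratio of 0.32, the 5 highest and 5 lowest per kb and for 10 preset genes, and of other lists at most the highest and lowest ratio. ATF4, PDIA2 and the marker genes were named after their values were seen. Protein sequences were not used here, so the planned description of retrieval signals was not made.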

Additional observations from a re-analysis of the deposited data

How the results depend on the processing

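Of 529 values recomputed under an alternative, 523 stayed within the counting interval, within the median half-width of the members' intervals or, for a number of genes, within 1.5 times the value reported. All 168 recomputed log2 ratios of single members, under scaling by totals, scaling by median-of-ratios factors, removal of the prior and a pseudocount of 1 CPM, were among these and had the sign reported. These scalings are close to each other by construction, with TMM factors of 0.998 and 1.002, and say little about stability. The median log2 ratio of the members ran from -0.04 with no filter on low values to -0.03 with library totals alone. With totals or median-of-ratios factors, 9 members in place of 8 had a counting interval above 0, and 13 had one below 0 as reported.

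The number of members past a fold followed the threshold. At a log2 ratio of 0.20, 1 of 40 members was higher (10.9% of all genes) and 5 were lower (16.4%) in high glucose, and at 0.58 1 was lower (2.55%). With no filter on low values, 4 members were lower by 0.32, since ERN2 and DERL3 were added, both with 11 counts or fewer per library. The summed CPM of the members without the one with the highest CPM, which is not per length, was 13264 in low glucose (without CALR) and 13200 in high glucose (without P4HB). With the longest coding transcript, 4 of the 5 highest members per kb and 4 of the 5 lowest were shared. Adding VIMP for SELENOS was chosen after seeing the data and gave a median of -0.03. Intervals cover counting error only, and depth limits ERN2 and DERL3 most. No paired analysis was possible because there was a single library at either concentration.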
